A study of Mus musculus with 8 samples.

Results

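In brown fat of mice fed again for 1 h after a fast, 79 genes were high in the same 2 arrays in which Angptl8, a feeding-induced regulator of plasma triglyceride clearance, was low. These arrays were Abhd15 KO replicate 1 and WT replicate 2, so each genotype group holds one of them. The genes were chosen by their measured values. A gene had to have a mean of at least 4 log2 over the 8 arrays, lie above all 6 other arrays in both of these, and average at least 0.8 log2 more in them than in the other 6. Left out by name were Fos, Fosb, Jun, Junb, Atf3, the Egr genes, Zbtb16 and the clock genes Per, Cry, Nr1d and Dbp. This removed Egr1, Nr1d2 and Zbtb16. Other early response factors, such as Myc and Klf2, were kept. The rule kept 79 of 9631 genes with that mean (0.82%), out of 22180 genes measured. The differences between these arrays and the other 6 are therefore descriptions with no test, and only the comparison of genotypes was tested.

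The study used male C57BL/6J mice aged 14 weeks on normal chow, fasted overnight and given chow again for 1 h. Another label speaks of up to 14 weeks on that diet. Brown adipose tissue, the fat depot that burns lipid to make heat, was taken from 5 mice labelled as knockouts of Abhd15, the gene of an adipocyte protein (Abhd15 KO), and from 3 wild-type (WT) mice. Total RNA (200 ng) of each mouse went on its own Affymetrix Mouse Gene 2.0 ST array, and all values are deposited log2 intensities. The sources used here name no Cre driver, deleted exon, litter, cage or harvest day, and the p-values measure the spread between these arrays.

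In Abhd15 KO replicates 1 to 5 the Abhd15 transcript itself read 6.32, 6.14, 5.68, 6.35 and 6.13, against 5.87, 5.94 and 6.23 in WT replicates 1 to 3. The groups overlapped, and the arrays labelled Abhd15 KO were not lower. A second, dimmer Abhd15 probe set read 3.72, 3.73, 4.30, 3.66 and 3.65 in Abhd15 KO replicates 1 to 5, against 3.21, 2.98 and 4.36 in WT replicates 1 to 3, again with overlap. The labels do not say which bases were deleted, so these probe sets are no check of them, and every direction between genotypes rests on the labels. The 8 arrays had medians of 3.00 to 3.04 log2 and correlated with each other at 0.964 to 0.975 over all probe sets. The heat-producing uncoupling protein Ucp1 read 12.5 to 12.9 in every array.

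Angptl8 read 7.90 in Abhd15 KO replicate 1 and 7.95 in WT replicate 2, against 10.81, 10.42, 10.42 and 10.80 in Abhd15 KO replicates 2 to 5 and 10.81 and 10.45 in WT replicates 1 and 3. The 2 low arrays lay 2.69 log2 below the mean of the other 6, with no overlap. The group of genes is defined by these arrays, where Angptl8 is low, so its opposite direction is no finding. Of the 2 genes that were given as markers of the group, Thbs1 was a member and Cited2 was not. Cited2, a transcriptional coregulator that binds CBP and p300, read 6.60 in Abhd15 KO replicate 1 and 7.27 in WT replicate 2, against 5.93 to 6.53 in the other 6 arrays. It was above all of them in both arrays, but its difference of 0.75 log2 fell short of 0.8.

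Refeeding raises insulin, which turns on lipid synthesis and restrains fasting genes, in part by moving FOXO1 out of the nucleus. Fat tissue also holds fibroblasts, which lay down collagens, and macrophages and other immune cells, and a tissue sample averages over all of them. Growth factor and stress signals switch on short-lived transcripts within minutes to hours, and their products include inhibitors that end the signal.

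Of the 9631 genes, 1046 (10.9%) were above all 6 other arrays in both of these arrays and 863 (8.96%) were below all 6 in both. The mirrored rule, with a difference of at least 0.8 log2 downward and no gene left out by name, gave 116 genes. The members' differences ran from 0.80 to 2.11 with a median of 0.96 log2, against a median of 0.01 over all 9631 genes. In 30 members the difference was at least 1 log2, a factor of 2 in signal. Just inside the limit were Lgals12 (0.81), Rad51d (0.80) and Emp3 (0.80), and just outside it Ptprc (0.79), Ccl27a (0.79) and Mxra7 (0.78). The members comprised 75 protein-coding genes and 4 others, and 27 of them had a mean under 5 log2, against a dim limit of 2.88 log2. The members were sorted into groups by textbook role after they were known.

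**Figure D1:**
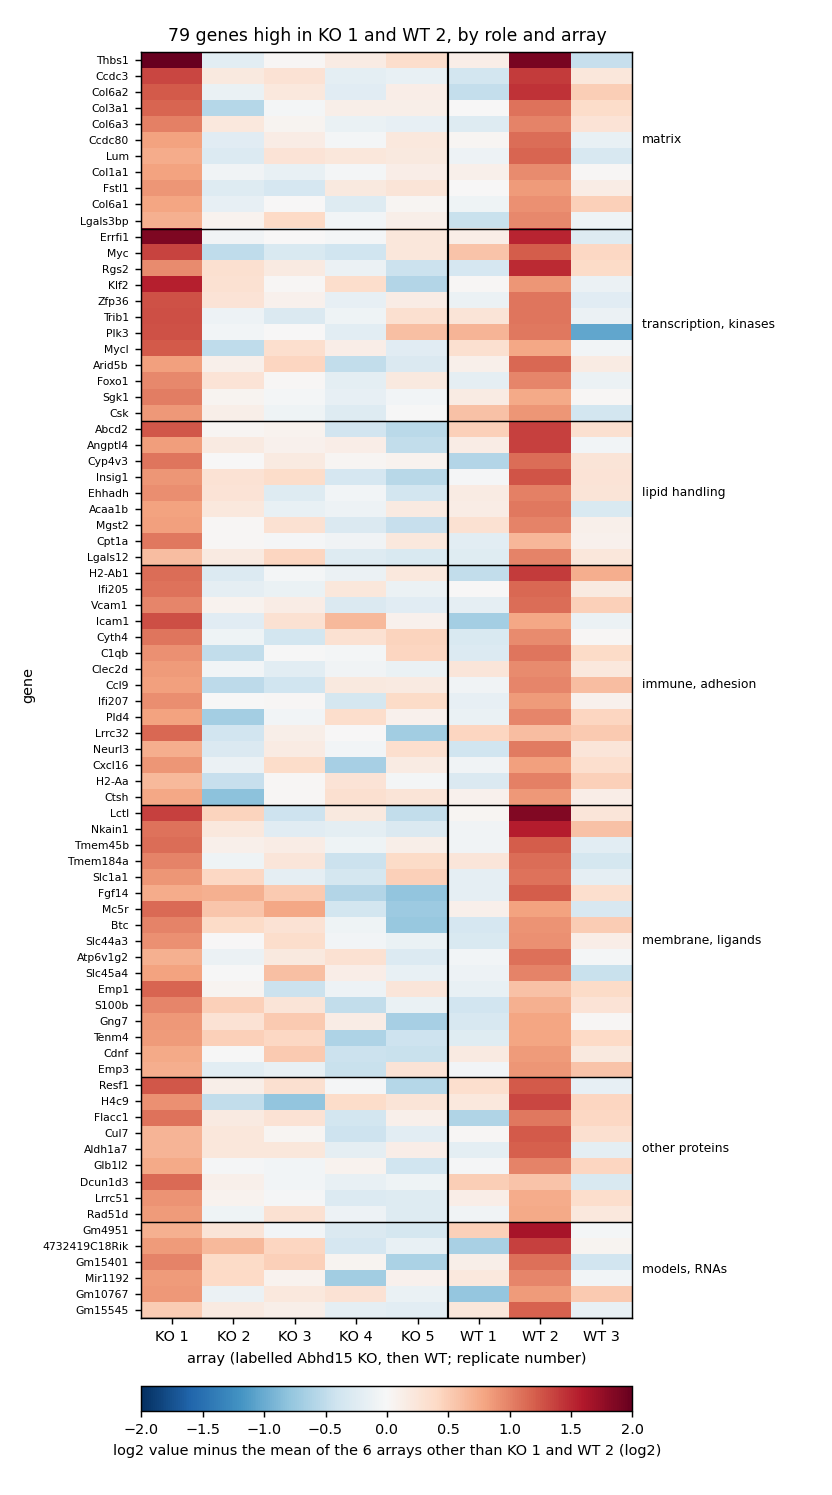
Each of the 79 members (one line each, grouped by role) is drawn as its log2 value minus its mean over the 6 arrays that did not choose the members, with a column for each array. Abhd15 KO replicate 1 and WT replicate 2 are high on every line by the rule, and the medians of the other 6 columns lie between −0.10 and 0.16. Colours stop at 2 log2, which Thbs1 exceeds in Abhd15 KO replicate 1.

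Matrix genes formed a group of 11 members with differences of 0.84 to 2.11 and a median of 0.96 log2. Thbs1, a secreted matrix glycoprotein that binds CD36 and CD47 and can activate latent TGF-beta, had the largest upward difference of all 9631 genes. It read 7.64 in Abhd15 KO replicate 1 and 7.22 in WT replicate 2, against 5.10, 5.34, 5.48 and 5.67 in Abhd15 KO replicates 2 to 5 and 5.45 and 4.85 in WT replicates 1 and 3. The lower of the 2 high arrays was 1.55 log2 above the highest of the others. Ccdc3, a secreted protein of fat and vessel cells, read 7.26 in Abhd15 KO replicate 1 and 7.32 in WT replicate 2, against 6.11, 6.22, 5.73 and 5.77 in Abhd15 KO replicates 2 to 5 and 5.56 and 6.15 in WT replicates 1 and 3. Again the 2 arrays were clear of the rest, here by 1.04 log2.

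All 3 common chains of collagen VI, a microfibrillar collagen abundant around fat cells, were members. Col6a2 read 6.78 in Abhd15 KO replicate 1 and 6.998 in WT replicate 2, against 5.42, 5.76, 5.33 and 5.68 in Abhd15 KO replicates 2 to 5 and 5.07 and 6.04 in WT replicates 1 and 3. WT replicate 3 was the highest of the other 6. Col6a3 differed by 1.00 and Col6a1 by 0.86 log2, and Col6a2 and Col6a1 are neighbours on chromosome 10 with 0 protein-coding genes between them. The fibrillar collagen chains Col3a1 and Col1a1 differed by 1.13 and 0.88 log2. Col1a2, the partner chain of Col1a1, was above all 6 in both arrays but differed by only 0.76. The other members of the group were Ccdc80 (0.96), a matrix protein of fat, the proteoglycan lumican Lum (0.95), the secreted glycoproteins Fstl1 (0.86) and Lgals3bp (0.84). The thrombospondins Thbs2 and Thbs3 did not share the pattern, with differences of 0.24 and −0.29, and the Thbs1 receptors Cd36 and Cd47 differed by 0.11 and −0.20.

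Transcription factors, mRNA decay factors and kinases gave 12 members with a median difference of 1.17 log2. Errfi1, an inhibitor of the EGF receptor family, read 7.47 in Abhd15 KO replicate 1 and 7.13 in WT replicate 2, against 5.54, 5.62, 5.57 and 5.84 in Abhd15 KO replicates 2 to 5 and 5.74 and 5.35 in WT replicates 1 and 3. The other 6 arrays spanned less than the distance to the 2 high ones. Myc, a growth-promoting transcription factor, read 5.39 in Abhd15 KO replicate 1 and 5.25 in WT replicate 2, against 3.53, 3.74, 3.64 and 4.27 in Abhd15 KO replicates 2 to 5 and 4.61 and 4.46 in WT replicates 1 and 3. Here the remaining WT arrays were above the remaining Abhd15 KO arrays. Klf2, a zinc-finger factor of endothelial and immune cells, read 6.41 in Abhd15 KO replicate 1 and 5.74 in WT replicate 2, against 5.17, 4.88, 5.21 and 4.27 in Abhd15 KO replicates 2 to 5 and 4.88 and 4.74 in WT replicates 1 and 3. Its 2 high arrays differed from each other by 0.67 log2, the widest gap in favour of Abhd15 KO replicate 1 among the members.

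Zfp36, which speeds decay of AU-rich mRNAs, read 7.29 in Abhd15 KO replicate 1 and 7.09 in WT replicate 2, against 6.29, 6.10, 5.85 and 6.16 in Abhd15 KO replicates 2 to 5 and 5.90 and 5.80 in WT replicates 1 and 3. Trib1, a pseudokinase adapter for protein breakdown, read 5.89 in Abhd15 KO replicate 1 and 5.67 in WT replicate 2, against 4.50, 4.32, 4.52 and 4.93 in Abhd15 KO replicates 2 to 5 and 4.86 and 4.49 in WT replicates 1 and 3. Rgs2, which shortens G protein signals, read 9.77 in Abhd15 KO replicate 1 and 10.32 in WT replicate 2, against 9.16, 9.01, 8.71 and 8.41 in Abhd15 KO replicates 2 to 5 and 8.50 and 9.21 in WT replicates 1 and 3. In all 3 genes the 2 arrays stood above the others by 0.56 log2 or more. The remaining members were the kinases Plk3 (1.16), Sgk1 (0.89) and Csk (0.87), the last an inhibitor of Src kinases, and the transcription factors Mycl (1.00), Arid5b (0.98) and Foxo1 (0.96). Foxo1 is the factor that insulin excludes from the nucleus, and its relative Foxo3 differed by 0.62 without clearing all 6 arrays. In this group 8 of 12 members were higher in Abhd15 KO replicate 1 than in WT replicate 2. The median of that difference was 0.21 log2, against 0.02 over all 9631 genes.

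Lipid genes gave 9 members, with differences of 0.81 to 1.31 log2. Abcd2, which carries very long chain fatty acids into peroxisomes, read 9.13 in Abhd15 KO replicate 1 and 9.26 in WT replicate 2, against 7.92, 7.96, 7.51 and 7.35 in Abhd15 KO replicates 2 to 5 and 8.36 and 8.21 in WT replicates 1 and 3. As with Myc, the remaining WT arrays were above the remaining Abhd15 KO arrays. Angptl4, an inhibitor of lipoprotein lipase that rises in fasting and belongs to the same family as Angptl8, read 9.24 in Abhd15 KO replicate 1 and 9.76 in WT replicate 2, against 8.58, 8.49, 8.54 and 7.90 in Abhd15 KO replicates 2 to 5 and 8.55 and 8.35 in WT replicates 1 and 3. As a member it was by definition high where Angptl8 was low. The peroxisomal oxidation enzymes Ehhadh and Acaa1b differed by 0.97 and 0.93, and Cpt1a, which admits fatty acids to mitochondria, by 0.86. Cyp4v3, a fatty acid omega-hydroxylase, differed by 1.09 and Insig1, which holds the sterol-sensing SREBP complex in the endoplasmic reticulum, by 1.07. Mgst2, a glutathione transferase, and Lgals12, a galectin of lipid droplets, completed the group at 0.91 and 0.81. Near relatives had smaller differences: Abcd3 differed by 0.43, Acaa1a by 0.17 and Insig2 by −0.11. Of these, Abcd3 was above all 6 in both arrays.

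Immune and adhesion genes gave 15 members with a median difference of 0.90 log2. H2-Ab1, the beta chain of a class II molecule that presents antigen, read 8.11 in Abhd15 KO replicate 1 and 8.38 in WT replicate 2, against 6.71, 6.94, 6.88 and 7.19 in Abhd15 KO replicates 2 to 5 and 6.50 and 7.71 in WT replicates 1 and 3. WT replicate 3 was closest to the high arrays. Its partner chain H2-Aa, adjacent on chromosome 17, differed by 0.83. H2-Eb1 differed by 0.61 and was also above all 6 in both arrays. The adhesion molecules Vcam1 and Icam1 differed by 1.04 and 1.03, the complement component C1qb by 0.99, and Cyth4, an exchange factor of blood cells, by 1.00. The chemokines Ccl9 (0.90) and Cxcl16 (0.85), the endolysosomal nuclease Pld4 (0.89), the protease Ctsh (0.82) and Lrrc32 (0.88), a docking receptor for latent TGF-beta, were also members. Clec2d (0.90), a ligand of natural killer receptors, and the ubiquitin ligase Neurl3 (0.88) completed the group with the interferon-inducible Ifi205 (1.12) and Ifi207 (0.89), whose probes may read near-identical relatives.

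Receptors, ligands, transporters and other membrane proteins gave 17 members with a median of 0.92 log2. Lctl, a membrane protein of the klotho family, read 7.01 in Abhd15 KO replicate 1 and 7.50 in WT replicate 2, against 6.08, 5.22, 5.83 and 5.14 in Abhd15 KO replicates 2 to 5 and 5.67 and 5.89 in WT replicates 1 and 3. Nkain1, a partner of the sodium pump, read 5.79 in Abhd15 KO replicate 1 and 6.28 in WT replicate 2, against 4.92, 4.48, 4.52 and 4.42 in Abhd15 KO replicates 2 to 5 and 4.63 and 5.30 in WT replicates 1 and 3. In both genes WT replicate 2 was the highest array. Tmem45b (1.17) and Tmem184a (1.06) are membrane proteins. Mc5r (0.97) is a melanocortin receptor, Btc (0.94) a ligand of the EGF receptor, Slc1a1 (0.98) a glutamate and cysteine transporter and Fgf14 (0.97) an FGF homologue that stays in the cell. Egfr differed by 0.53 and was also above all 6 in both arrays. Mc5r and Fgf14 cleared the next array by only 0.03 log2. The other 9 members, Slc44a3, Atp6v1g2, Slc45a4, Emp1, S100b, Gng7, Tenm4, Cdnf and Emp3, differed by 0.80 to 0.92.

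Other enzymes and nuclear proteins gave 9 members. Resf1, a factor that silences retroelements, read 7.18 in Abhd15 KO replicate 1 and 7.16 in WT replicate 2, against 6.05, 6.25, 5.91 and 5.36 in Abhd15 KO replicates 2 to 5 and 6.27 and 5.77 in WT replicates 1 and 3. The 2 arrays were nearly equal and clear of the rest by 0.89 log2. The histone gene H4c9 (1.13) and the aldehyde dehydrogenase Aldh1a7 (0.93) have near-identical relatives, as has Acaa1b above, so their probes may not separate them. Flacc1 (1.07), the cullin Cul7 (0.95), Glb1l2 (0.88), Dcun1d3 (0.86), Lrrc51 (0.82) and the recombination protein Rad51d (0.80) were the others. The last 6 members were Gm4951, 4732419C18Rik, Gm15401, Mir1192, Gm10767 and Gm15545, predicted models, noncoding transcripts and a microRNA locus. Gm4951 read 4.79 in Abhd15 KO replicate 1 and 5.72 in WT replicate 2, against 4.35, 4.03, 3.79 and 3.73 in Abhd15 KO replicates 2 to 5 and 4.55 and 4.04 in WT replicates 1 and 3. Its 0.93 log2 gap was the widest between the 2 high arrays.

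**Figure D2:**
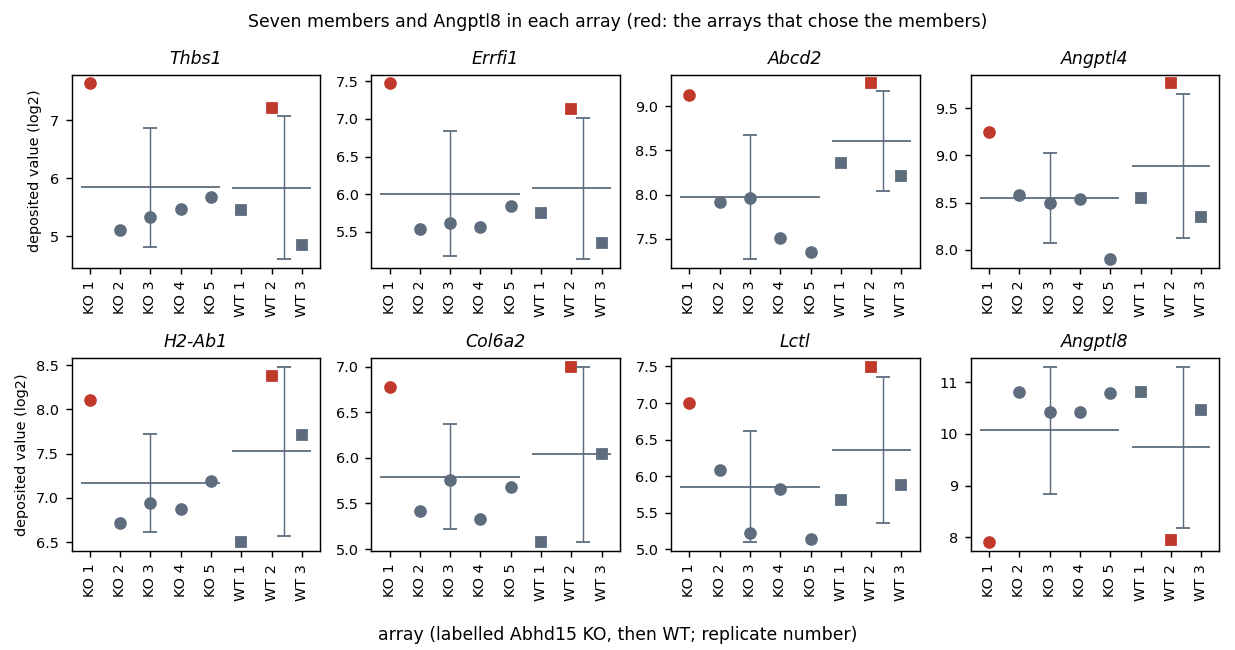
Log2 values of 7 members and Angptl8 in each array, with arrays labelled Abhd15 KO left of WT; red points are the 2 arrays that chose the members, horizontal lines are group means and bars are SD. Thbs1 reads 7.64 and 7.22 in the red arrays and at most 5.67 elsewhere. Angptl8 runs the opposite way, as the definition of the group sets.

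Of the members, 71 had 1 probe set and 8 had 2. The second probe set, which the rule did not read, was also above all 6 arrays in both high arrays for Rgs2 (difference 1.80), Ccdc80 (1.19), Foxo1 (1.06), Col6a1 (0.81) and Lgals3bp (0.75). It was not for Ccdc3 (0.34), Emp1 (0.19) and Tenm4 (−0.02), of which Emp1 and Tenm4 averaged below the dim limit of 2.88 log2. These probe sets come from the same RNA and are no separate evidence about the mice.

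Promoters were set beside the members because the genes are high in the same arrays. RefSeq promoters (GRCm38.p6, the 250 bases before the start site) were listed for 57 of the 79 members and for 7679 genes with a mean of at least 4. Thbs1 has none in that list. The 6 printed here were picked, after the search, as examples from the transcription, lipid and matrix members. Capitals mark the CArG box, TGACG, E-box, FOXO, AP-1 and TATAAA letters; GC boxes are not marked.
Zfp36, chr7:28379229-28379478, minus strand: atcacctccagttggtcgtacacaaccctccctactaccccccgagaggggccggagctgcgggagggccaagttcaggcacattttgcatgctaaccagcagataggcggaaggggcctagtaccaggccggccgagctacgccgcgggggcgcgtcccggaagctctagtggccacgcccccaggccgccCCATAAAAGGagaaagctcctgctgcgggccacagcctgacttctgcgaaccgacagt
Rgs2, chr1:144004150-144004399, minus strand: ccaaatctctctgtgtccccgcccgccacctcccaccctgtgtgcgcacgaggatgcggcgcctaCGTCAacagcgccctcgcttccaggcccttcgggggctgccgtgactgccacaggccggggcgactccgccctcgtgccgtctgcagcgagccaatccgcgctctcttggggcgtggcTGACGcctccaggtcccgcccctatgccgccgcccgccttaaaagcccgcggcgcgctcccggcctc
Klf2, chr8:72318812-72319061, plus strand: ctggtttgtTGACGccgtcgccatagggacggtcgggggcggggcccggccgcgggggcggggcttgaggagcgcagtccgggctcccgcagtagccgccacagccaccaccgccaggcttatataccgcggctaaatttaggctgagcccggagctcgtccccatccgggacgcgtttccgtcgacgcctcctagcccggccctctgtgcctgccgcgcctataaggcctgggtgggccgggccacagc
Insig1, chr5:28071162-28071411, plus strand: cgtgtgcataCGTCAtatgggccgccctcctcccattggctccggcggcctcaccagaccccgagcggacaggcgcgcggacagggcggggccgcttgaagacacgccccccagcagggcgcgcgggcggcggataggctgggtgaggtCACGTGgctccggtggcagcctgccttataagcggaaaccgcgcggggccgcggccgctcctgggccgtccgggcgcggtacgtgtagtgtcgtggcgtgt
Col6a1, chr10:76726045-76726294, minus strand: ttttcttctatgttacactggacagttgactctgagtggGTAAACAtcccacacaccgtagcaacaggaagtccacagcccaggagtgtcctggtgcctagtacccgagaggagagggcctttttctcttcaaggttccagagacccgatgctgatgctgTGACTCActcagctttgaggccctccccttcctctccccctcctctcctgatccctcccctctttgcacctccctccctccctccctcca
Col3a1, chr1:45311288-45311537, plus strand: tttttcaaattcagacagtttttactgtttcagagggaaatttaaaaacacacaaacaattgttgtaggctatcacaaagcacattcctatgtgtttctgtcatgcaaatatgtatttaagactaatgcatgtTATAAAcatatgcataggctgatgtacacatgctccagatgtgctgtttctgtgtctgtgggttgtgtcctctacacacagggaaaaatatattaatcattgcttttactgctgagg
The capitals are a serum response factor CArG box in Zfp36, from −58 to −49, the 5-base cyclic AMP response core TGACG or its reverse in Rgs2, Klf2 and Insig1, and an E-box (CACGTG) at −101 to −96 in Insig1. Col6a1 holds the FOXO letters TGTTTAC, here on the reverse strand, at −211 to −205 and an AP-1 site (TGANTCA) at −90 to −84. Col3a1 holds TATAAA at −117 to −112.

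TGACG stood in 28.1% of member promoters and 29% of all, its full palindrome TGACGTCA in 3.51% and 2.92%, AP-1 in 7.02% and 3.97%, and the CArG box in 1.75% and 1.16%. FOXO letters were in 4 member promoters (7.02% against 2.08%), those of Gm15401, Cul7, Emp1 and Col6a1. TATAAA, read on the gene's strand only, was in 9 (15.8% against 3.71%), and the GC box GGGCGG in 49.1% against 62.3%. ACGTG, the hypoxia response core that the E-box contains, was in 8.77% against 23.1%, and CACGTG in 5.26% against 9.08%. The PPAR DR1 element, the palindromic glucocorticoid element and the sterol response element matched 0 member promoters, and 0.13%, 0.221% and 0.026% of all. The other motifs were searched on both strands, and a match is a description of letters, not of binding.

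Lists of known targets were read in the same 2 arrays, beside the 10.9% of all genes above the other 6 and the 8.96% below. The rule used this contrast, so the counts describe the lists. Of the growth factor early response, 12 of 29 genes were above and 6 below, and 6 of 23 above and 6 below without the members. The 6 members among them were Errfi1, Myc, Rgs2, Klf2, Zfp36 and Plk3. The feedback inhibitor Spry1 (0.69) and Klf4 (0.75) were above, whereas Klf10 (−2.06), Ier3 (−1.35) and Dusp4 (−0.99) were below; these 5 were picked after their values were seen. Of glucocorticoid targets, 8 of 24 were above and 1 below, or 5 of 21 and 1 without the members. They included the members Errfi1, Angptl4 and Sgk1, while Fkbp5, a widely used readout of that hormone, differed by −0.12. The 5 without the members still hold Zbtb16 (1.40), which met the limits of the rule and was left out by name. Of fasting and PPAR alpha genes, 6 of 16 were above and 3 below, or 3 of 13 and 3 without the members. Those above included the members Angptl4, Ehhadh and Cpt1a and also Pdk4 (0.72), which blocks pyruvate oxidation. The 3 below were Fgf21 (−0.98), Lpin1 (−0.52) and Acadl (−0.08). Of FOXO targets, 5 of 27 were above and 3 below, or 4 of 26 and 3 without the member Foxo1, with a median difference of −0.04.

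TGF-beta signalling had 4 of 23 above and 5 below, and the ligand Tgfb1, among the 4, differed by 0.62. The 5 below were Klf10 (−2.06), Id2 (−0.85), Skil (−0.63), Smad3 (−0.44) and Smad4 (−0.28). Cyclic AMP targets had 2 of 14 above and 3 below, p53 targets 4 of 13 and 2, the thrombospondin and receptor list 2 of 13 and 2, the CITED and HIF list 2 of 11 and 2, and angiogenesis 3 of 18 and 3. Hypoxia targets had 3 of 18 above and 6 below, the integrated stress response 1 of 14 and 3, and heat shock genes 0 of 12 in either direction. The insulin-induced companions of Angptl8 had 3 of 15 above and 6 below.

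Markers of fibroblasts and macrophages were also higher in the 2 arrays. In bulk tissue, more cells of a type and more RNA per cell cannot be told apart. Of 12 fibroblast markers, 8 were above the other arrays and 0 below, and 4 of these 8 are members (Col1a1, Col3a1, Lum and Col6a1). The mean level of the 12 was 7.23 in Abhd15 KO replicate 1 and 7.30 in WT replicate 2, against 6.51 to 6.95 in the other 6. That mean includes the 4 members, so part of its height follows from the rule. Pdgfra, the defining receptor of these cells, differed by 0.33 and Dcn by −0.05, without clearing the other arrays. Of 14 macrophage markers, 7 were above and 0 below, and 1 of them, C1qb, is a member. The mean of the 14, C1qb included, was 5.70 in Abhd15 KO replicate 1 and 5.89 in WT replicate 2, against 4.81 to 5.51 in the other 6. The receptor Csf1r differed by 0.75. Without the members, 4 of 8 fibroblast and 6 of 13 macrophage markers were above.

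Brown adipocyte markers averaged 9.85 in Abhd15 KO replicate 1 and 9.70 in WT replicate 2, inside the 9.33 to 9.97 of the other 6, and 0 of 11 were above or below. Endothelial markers had 1 of 15 above and 2 below, smooth muscle 0 of 10, and skeletal muscle 0 of 16. The muscle mean was 6.75 in Abhd15 KO replicate 1 and 7.34 in WT replicate 2, inside the 4.97 to 8.35 of the other 6. White adipocyte markers had 1 of 5 above, the member Ccdc80, and 1 below, Agt (−1.01), and Schwann cell markers 1 of 3, the member S100b. Neutrophil (1 of 1 above), platelet (1 of 2), mast cell (0 of 2 above, 1 below), B cell and mesothelium (0 of 1 each) lists had few genes with a mean of at least 4, and erythroid and T cell lists had 0. The part of any marker list in the members' difference was not tested.

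**Figure D3:**
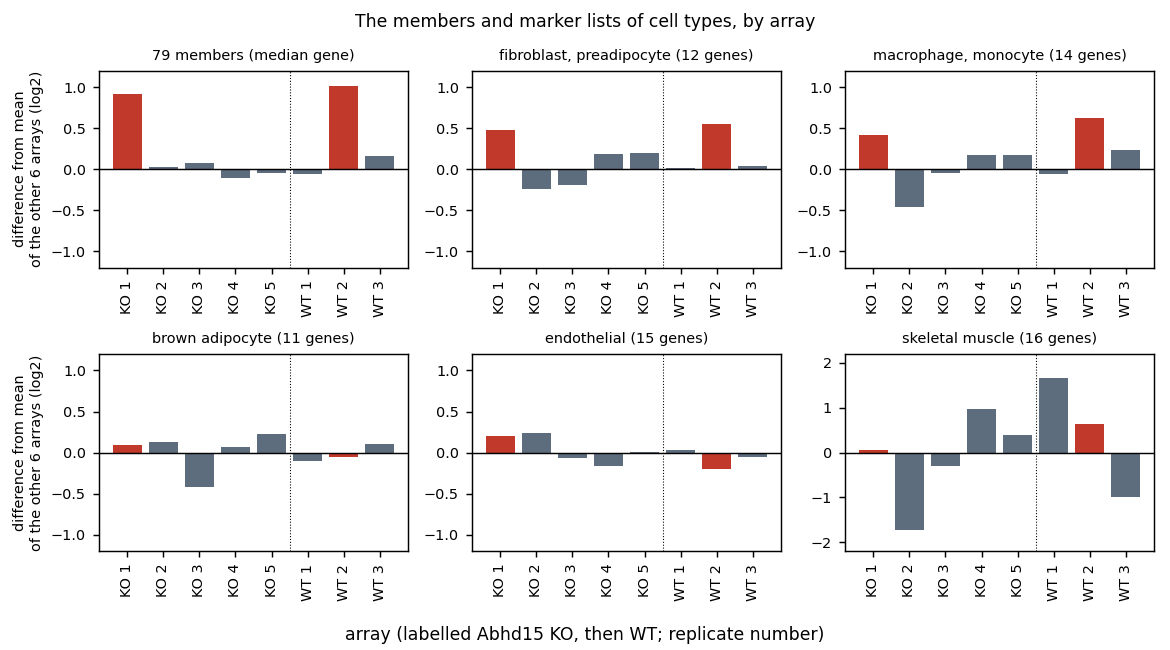
Bars give, for each array, the median over the members and the mean of each marker list as a log2 difference from the mean of the other 6 arrays, with arrays labelled Abhd15 KO left of WT and the 2 arrays that chose the members in red; the muscle panel has a wider axis. Fibroblast and macrophage means are highest in the red arrays, and brown adipocyte and muscle means are not. The fibroblast mean includes 4 members and the macrophage mean 1, which the rule chose for being high there.

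Between the 2 high arrays, the members' median absolute gap was 0.20 log2, against 0.16 over all 9631 genes. The rule, which asks for a high value in both, limits that gap. Of the 79, 30 were higher in Abhd15 KO replicate 1 and 49 in WT replicate 2. The median of Abhd15 KO replicate 1 minus WT replicate 2 was −0.10 log2 over the members, against 0.02 over all 9631 genes. The widest gaps toward the Abhd15 KO array were in Klf2 (0.67), Emp1 (0.58), Dcun1d3 (0.56), Lrrc32 (0.52) and Icam1 (0.51), and toward the WT array in Gm4951 (−0.93), Gm15545 (−0.67), Cul7 (−0.56) and Rgs2 (−0.55). Among the other 6 arrays, which the rule did not order, the members had a median SD of 0.33 log2, against 0.18 over all genes. WT replicate 3 was the highest of the 6 for 22 members (27.8%, against 15.7% of all genes), and Abhd15 KO replicate 5 the lowest for 23 (29.1%, against 13.02%). For the immune members the median deviation was 0.34 in WT replicate 3 and −0.27 in Abhd15 KO replicate 2, and for the lipid members −0.36 in Abhd15 KO replicate 5. No test was made of these counts.

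Whether Abhd15 genotype changed the members was tested with limma over the 13223 genes above the dim limit, which all 79 members passed. With all 8 arrays 0 of 79 members and 0 of 13223 genes (0%) passed an adjusted p of 0.05 (limma, smallest adjusted p = 0.9997). At an unadjusted p under 0.05, limma gave 0 members higher in the arrays labelled Abhd15 KO, against 2.23% of all genes, and 0 lower, against 1.76%. Both counts use the arrays that chose the members, and a high array in each group widens the spread within both, so nothing is read from them. By the rule no member could separate the groups without overlap, as 1.58% of all genes did upward and 1.19% downward. The median difference over members was −0.19 log2, against 0.01 over all genes, and 62 of 79 (78.5%) were below 0, against 48.3%. The choice itself sets part of that, because the high arrays are 1 of 5 in one group and 1 of 3 in the other. The members' own differences between the 2 arrays and the other 6 give a median of −0.13 by that arithmetic alone.

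Thbs1 averaged 5.85 ± 1.02 in arrays labelled Abhd15 KO (SD, n = 5) and 5.84 ± 1.23 in WT (SD, n = 3). The difference was 0.01 log2 with a 95% confidence interval of −1.46 to 1.47, which includes a 2-fold change in either direction. Cited2 averaged 6.21 ± 0.24 in arrays labelled Abhd15 KO (SD, n = 5) and 6.64 ± 0.58 in WT (SD, n = 3), a difference of −0.43 (−0.98 to 0.12). Angptl8 averaged 10.07 ± 1.23 in arrays labelled Abhd15 KO and 9.74 ± 1.56 in WT, a difference of 0.33 (−1.46 to 2.12). Among members with a positive difference, the lowest p belonged to Icam1 at 0.43 (−0.43 to 1.29), Slc45a4 at 0.13 (−0.62 to 0.88) and Lgals3bp at 0.10 (−0.58 to 0.78). Among those with a negative one it belonged to Gm4951 at −0.64 (−1.47 to 0.20), Myc at −0.66 (−1.57 to 0.26) and Abcd2 at −0.64 (−1.53 to 0.25). Every one of these intervals includes 0, and they too carry the spread that the choice put into both groups.

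**Figure D4:**
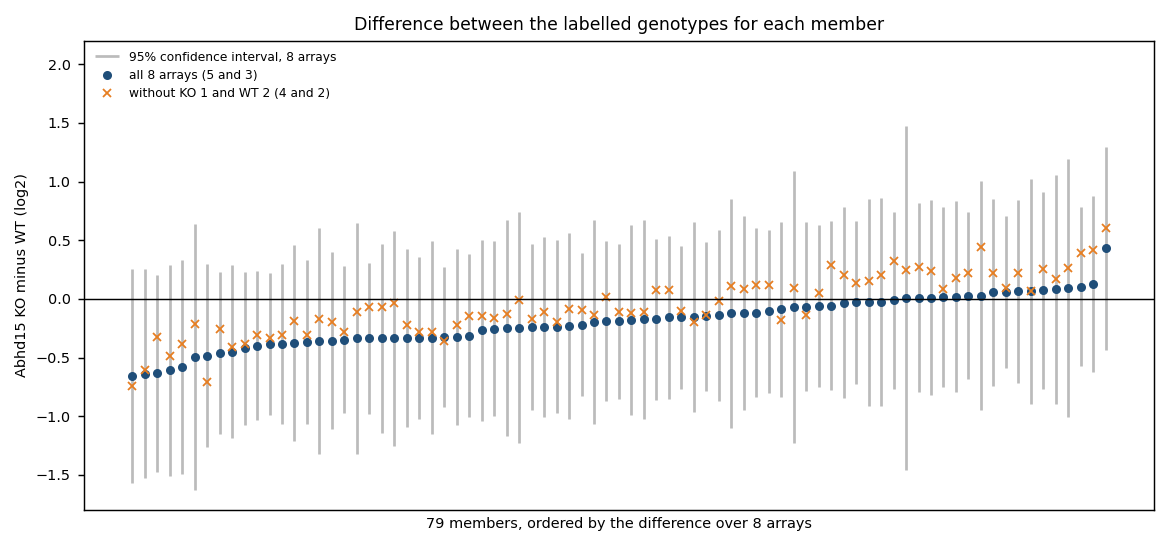
Abhd15 KO minus WT difference in log2 for the members, from all 8 arrays and from the 6 arrays that did not choose them; grey bars are 95% confidence intervals with 8 arrays. Points with all 8 arrays run from −0.66 to 0.43 and those with 6 arrays from −0.74 to 0.61.

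Without the 2 high arrays, 4 arrays labelled Abhd15 KO stood against 2 WT arrays, a comparison the rule did not use. Again 0 members and 0 genes (0%) passed (limma, smallest adjusted p = 0.9996). The median over members was −0.10, against 0.00 over all genes, and 47 of 79 (59.5%) were below 0, against 49.3%. At an unadjusted p under 0.05, limma gave 0 members higher, against 1.92% of genes, and 4 lower (5.06%), against 2.09%. These were Myc (−0.74), Lrrc32 (−0.71), Abcd2 (−0.60) and Clec2d (−0.34). Lgals3bp (0.39) and Aldh1a7 (0.29) were higher without overlap (2.53%, against 6.06% of genes). The same 4 and Lrrc51 (−0.36) were lower without overlap (6.33%, against 5.52%). Thbs1 differed by 0.25 (−0.28 to 0.77).

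In the lists, 0 genes passed the adjusted threshold between genotypes. Of the growth factor list 16 were higher and 14 lower in arrays labelled Abhd15 KO, of glucocorticoid targets 16 and 10, of fasting genes 8 and 9 and of FOXO targets 13 and 14. The list genes of lowest p included Slc2a1, a glucose transporter, at 0.58 (0.29 to 0.87), the cell cycle inhibitor Cdkn1a at 0.35, the integrin Itgb3 at 0.37, the vasoconstrictor Edn1 at −0.57, Phlda1 at −0.49 and Eda2r at −0.41, each with a limma adjusted p of 0.9997. In arrays labelled Abhd15 KO, 14 of 17 macrophage markers and 11 of 12 fibroblast markers were below WT, against 48.3% of all genes, with list medians of −0.20 and −0.05. The 2 high arrays alone give −0.06 for the macrophage and −0.05 for the fibroblast median, by the same arithmetic as for the members. That macrophage value covers only the 14 markers with a mean of at least 4, not all 17. Below WT were also 18 of 18 skeletal muscle markers, and 14 of 15 endothelial markers were above. Genes of a list share the same arrays, so these counts are not separate observations. Array means of these lists overlapped between the groups. The mean of 16 muscle markers was 6.75, 4.97, 6.38, 7.67 and 7.08 in Abhd15 KO replicates 1 to 5. In WT replicates 1 to 3 it was 8.35, 7.34 and 5.70. None of these marker genes passed the adjusted threshold in limma.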

How the data were processed

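The deposited values are log2 intensities, 1 per probe set and array, made by the authors with RMA in the oligo package per the submitters' processing notes, with no version given; the design text also names Affymetrix Expression Console. RMA quantile-normalizes the arrays, so it would hide a shift common to the bulk of transcripts. The build behind the probes was not given in the sources used here. Of 41345 probe sets, 23521 name 1 gene, 1814 several and 16010 none here. The probe set of highest mean stood for a gene.

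Genotypes were tested in R 4.3.3 with limma 3.58.1 (1 group term, Benjamini-Hochberg adjustment over all genes tested) on the deposited values, with differences as Abhd15 KO minus WT. A gene was tested if it exceeded 2.88 log2, the 95th percentile of 1400 olfactory and vomeronasal receptor probe sets, in at least 3 arrays. The steps were tested on simulated data. The number of arrays limits the precision.

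The members, gene lists and alternatives were chosen with earlier results of these data known. The naming rule took the 45 members with the largest difference and those in the lists or at the limits; the rest are named to account for all 79. Relatives and partners of members, list genes that are no members, and role groups were chosen after values were seen.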

Additional observations from a re-analysis of the deposited data

Results flagged for a closer look

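In 3 of 17 genes checked, 1 array labelled Abhd15 KO stood far from the other 4, by Dixon's ratio of the gap to the range against a critical value of 0.71 for 5 arrays. The array was replicate 1 each time. It was the highest for Errfi1 (ratio 0.847) and for Thbs1 (0.774), and the lowest for Angptl8 (0.864). About 1 in 20 groups passes by chance, and here the genes were chosen for being high in that array, or low for Angptl8. That choice makes it the extreme array and favours a large ratio without fixing it, so the ratios count as descriptions. WT has 3 arrays and was not examined in this way.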

How the results depend on the processing

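The number of members follows the limits of the rule. It was 181 with a difference of at least 0.6, 30 with at least 1, 52 with a mean of at least 5 and 138 with no minimum mean, and 72 to 89 under the other 9 alternatives. The mirrored rule gave 192 and 71 genes at those differences, and 95 to 136 otherwise. Between genotypes, 0 members and 0 genes passed under every one of the 16 alternatives run. Thbs1 differed by 0.005 and turned to −0.01 with a further quantile normalization. Leaving out each array in turn gave −0.489 to 0.695 for Thbs1. It turned below 0 without WT replicate 1 (−0.189), WT replicate 3 (−0.489) or Abhd15 KO replicate 1 (−0.443). Slc45a4 lay between −0.17 and 0.549, below 0 in the fits that dropped WT replicate 3 (−0.17) or Abhd15 KO replicate 1 (−0.006). Lgals3bp lay between −0.191 and 0.511, below 0 in those that dropped WT replicate 1 (−0.191), WT replicate 3 (−0.008) or Abhd15 KO replicate 1 (−0.013). Other named genes kept their sign, with values of −0.691 to −0.122 for Cited2, 0.096 to 0.823 for Icam1, −0.999 to −0.159 for Gm4951, −0.978 to −0.419 for Myc and −0.927 to −0.314 for Abcd2. The value nearest 0 came without WT replicate 2, for Icam1 without WT replicate 1. The median over members ran from −0.432 without WT replicate 1 to 0.096 without WT replicate 2. Adjusted p-values of the named members lay between 0.9484 and 1 in limma. By the rule WT replicate 2 and Abhd15 KO replicate 1 were high for every member. Leaving out the first therefore raised each member's difference by arithmetic, and leaving out the second lowered it. The cause of the other shifts was not tested beyond the fewer arrays.

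Replicate numbers occur in both groups. Deviations from the group means in arrays that share a number correlated at −0.26, −0.10 and 0.02. WT replicate 2 and Abhd15 KO replicate 1 carry different numbers and pull on these group means. The correlations therefore cannot decide whether the numbers pair the mice. With the replicate block, 0 genes and 0 members passed, the median over members was 0.001 and Thbs1 differed by 0.186. Replicate numbers found only among arrays labelled Abhd15 KO add nothing to that difference, which rests on the numbers present in both groups. The 2 high arrays then weigh equally in both groups, so the pull of the choice on the median drops out. The shift from the fit without the block is therefore no sign of pairing. Arrays give no read depth, and 27 members average under 5 log2, where signal over background limits the differences.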
